A study of Mus musculus with 26 samples.

Results

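Sperm methylation was compared between 2 sets of libraries made by reduced-representation bisulfite sequencing (RRBS) of epididymal sperm, a set of 5 (libraries 12, 14, 15, 18 and 19) and a set of 10 (libraries 1 to 10), out of 26 libraries in the series. In the study's clustering figure the set of 5 is named SSCT F1 and the set of 10 is SSCT F2, the first and second generation of offspring after spermatogonial stem cell transplantation (SSCT). The sample titles name the same libraries otherwise. By title, the set of 5 is SSCT F2/P, libraries 1, 3, 7, 8 and 10 are SSCT F1, and libraries 2, 4, 5, 6 and 9 are Control F1 with the treatment WT. In the figure, libraries 1, 3, 7, 8 and 10 are SSCT F2/P and libraries 2, 4, 5, 6 and 9 are SSCT F2/M. The sets are therefore called by their size here. All mice were DBA/2J males of 3 months. SSCT F1 were bred from W/W-v males, sterile until they received cultured DBA/2J stem cells, and untreated DBA/2J females. SSCT F2/M had an SSCT F1 mother and SSCT F2/P an SSCT F1 father, each mated to an untreated DBA/2J partner, while Control F1 had 2 untreated parents. The stem cells came from neonatal pups, and siblings were avoided within a subgroup of 5. The comparison used the 522173 autosomal CpG positions with at least 10 reads in all 15 libraries, of which 518554 also lay under the upper coverage limit of every library, and the 114788 windows of 1000 bp that hold them. Each library is 1 mouse.

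A methylated cytosine of a CpG carries a methyl group that is copied at cell division and, at many promoters, goes with a silent gene. The male germ line erases and rewrites these marks before birth, so that mature sperm are methylated over most of the genome and unmethylated at CpG islands, at the promoters of germline genes and at the loci imprinted through the mother. RRBS reads the CpG-rich fragments left by a restriction enzyme. A level in this text is the percent of reads at a position or window that were methylated, and a difference is the read-weighted level of the set of 5 minus that of the set of 10, in percentage points.

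The deposited tables held 50626343 to 75299581 reads, summed over positions, in a library of the set of 5 and 45616751 to 66815528 in one of the set of 10, which differed in their means (exact permutation test over all assignments of the 15 libraries, two-sided, p = 0.0403). The median coverage of the compared positions was 44.2 ± 6.50 reads (SD, n = 5) against 37.9 ± 4.48 (SD, n = 10). Its part in the calls was not tested. The unmethylated spike-in control read 0.944% methylated in both sets, and the methylated control 98.6% in both. The library numbers of the sets are separate and the libraries were pooled for sequencing in groups whose members are not given in the sources used here, so pool and set cannot be told apart.

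The labelled cell type was held against its markers. All 18 genes listed for maternally methylated imprinted loci (17 windows, since Igf2r and Airn share 1), among them Peg3, Snrpn, Mest, Peg10 and Kcnq1ot1, were at or under 20% in all 15 libraries at their best-covered window. The highest value was 15.3%. A best-covered window need not be the imprinted region. That of Nnat lies outside the gene span, and the shared one holds an end of Igf2r but lies away from the ends of Airn. Of 13 germline genes whose promoters are methylated in somatic cells, 12 were likewise at or under 20% in every library, including Dazl, Ddx4, Sycp1 and Sycp3. Tex14, which encodes a protein of the bridges between germ cells, was the exception. Its best-covered window, chr11:87468001-87469000, lies inside the gene span (chr11:87405013-87555823) away from both ends, so it does not show the promoter. The same limit holds for some of the 12 genes. The window of Dmrtb1 also lies inside its gene span away from both ends, and that of Tdrd1 lies outside its span. At the loci imprinted through the father, the best-covered windows near H19, Meg3, Rasgrf1 and Zdbf2 lay at unmethylated stretches, at most 13.4% in any library. The windows of the same genes that were methylated were read after these values were seen. The window at chr7:142581001-142582000 upstream of H19 stood at 97.6% ± 2.29 (SD, n = 5) and 98.6% ± 2.39 (SD, n = 10), and 4 of 8 Rasgrf1 windows were at or over 80% in every library. These Rasgrf1 windows lie inside the gene span, and whether they belong to its imprinted region was not tested. Meg3 and Zdbf2 had no window at or over 80% in every library, although 1 Meg3 window averaged 99.0% in the set of 5 and 96.5% in the set of 10.

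The promoters in which the calls fell were read from RefSeq (GRCm38.p6). In the 250 bases before the gene start, 7667 of 31363 promoters held a compared CpG position and 9 of these (0.117%) held a differentially methylated CpG (DMC, defined with the counts below). By position, 9 of 49078 compared CpGs in these stretches were called, or 0.0183%, which is below the 0.162% of all compared CpGs. The comparison was not matched for methylation level, and of all windows with a mean level under 20%, 0.0197% were called. None of the 9 genes was on any list drawn up for the comparison. The stretches of 5 of them are shown because they range from the emptiest to the fullest in CpGs, with the called CpG in capitals, 5′ to 3′ on the strand of the gene. They are Gm32549 (chr4:138496229-138496478, plus strand), Slc8a1 (chr17:81738388-81738637, minus strand), Zscan29 (chr2:121171126-121171375, minus strand), Cabp1 (chr5:115186122-115186371, minus strand) and Prom2 (chr2:127541418-127541667, minus strand).
Gm32549: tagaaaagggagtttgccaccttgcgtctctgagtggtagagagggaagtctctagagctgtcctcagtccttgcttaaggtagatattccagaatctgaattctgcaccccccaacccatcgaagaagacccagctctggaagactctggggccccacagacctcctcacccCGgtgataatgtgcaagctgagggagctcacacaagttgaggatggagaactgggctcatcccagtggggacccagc
Slc8a1: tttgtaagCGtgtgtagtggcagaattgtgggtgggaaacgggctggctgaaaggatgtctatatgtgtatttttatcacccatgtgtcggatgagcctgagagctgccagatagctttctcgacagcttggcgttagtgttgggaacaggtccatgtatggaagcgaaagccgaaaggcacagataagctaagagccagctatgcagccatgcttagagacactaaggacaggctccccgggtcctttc
Zscan29: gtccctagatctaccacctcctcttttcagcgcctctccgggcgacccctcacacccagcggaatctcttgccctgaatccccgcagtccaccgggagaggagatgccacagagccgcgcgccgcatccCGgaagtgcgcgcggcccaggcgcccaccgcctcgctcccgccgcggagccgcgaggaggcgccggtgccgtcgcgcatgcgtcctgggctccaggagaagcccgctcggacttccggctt
Cabp1: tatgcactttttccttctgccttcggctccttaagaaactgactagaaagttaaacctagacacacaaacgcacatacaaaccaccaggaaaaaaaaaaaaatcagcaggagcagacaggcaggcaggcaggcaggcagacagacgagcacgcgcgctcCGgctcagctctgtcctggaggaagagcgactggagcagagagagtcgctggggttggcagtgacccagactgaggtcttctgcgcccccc
Prom2: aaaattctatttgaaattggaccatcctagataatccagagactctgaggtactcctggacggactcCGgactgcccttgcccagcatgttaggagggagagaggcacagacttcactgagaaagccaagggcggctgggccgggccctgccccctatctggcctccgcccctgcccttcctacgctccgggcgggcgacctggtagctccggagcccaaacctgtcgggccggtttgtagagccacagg
The stretch of Gm32549 holds 3 CpGs, that of Slc8a1 holds 8, Cabp1 has 10, Prom2 has 12 and Zscan29 has 31, against a median of 6 over all promoters. Only 1 CpG of each was called, out of 1 compared at Gm32549 and at Slc8a1, 5 at Cabp1 and at Prom2, and 28 at Zscan29. Near Slc8a1, positions chr17:81738658 and chr17:81738667, beyond the stretch, were also called.

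Over all compared positions the means of the sets differed by less than the spread between mice. The mean level over CpG positions was 33.85% ± 0.165 (SD, n = 5) in the set of 5 and 33.90% ± 0.0817 (SD, n = 10) in the set of 10, with a difference of -0.0509 percentage points (exact permutation test, two-sided, p = 0.432, and p = 0.657 after Benjamini-Hochberg adjustment over 7 measures of level). The libraries of the set of 5 ran from 33.64% to 33.98% and those of the set of 10 from 33.80% to 34.03%. Libraries 12 and 15 had the lowest means of all 15.

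By number of compared positions, the largest shift was in sparse windows. Windows of 1 or 2 compared positions, which are mostly methylated in sperm, had a mean of 78.47% ± 0.296 (SD, n = 5) against 78.65% ± 0.104 (SD, n = 10, exact permutation p = 0.0862, adjusted p = 0.604). Libraries 12 and 15, at 78.16% and 78.14%, were the lowest of all 15, and libraries 14, 18 and 19 lay within the range of the set of 10. The difference of -0.183 percentage points was -0.106 without library 12 and -0.102 without library 15, and it reached -0.256 without library 18 and -0.237 without library 19 (exact permutation p = 0.0300 and 0.0440, not adjusted). Windows of 10 or more positions, which are mostly CpG islands, stood at 6.358% ± 0.0674 (SD, n = 5) and 6.356% ± 0.0332 (SD, n = 10, exact permutation p = 0.925). None of the 7 measures passed the adjusted test.

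**Figure D1:**
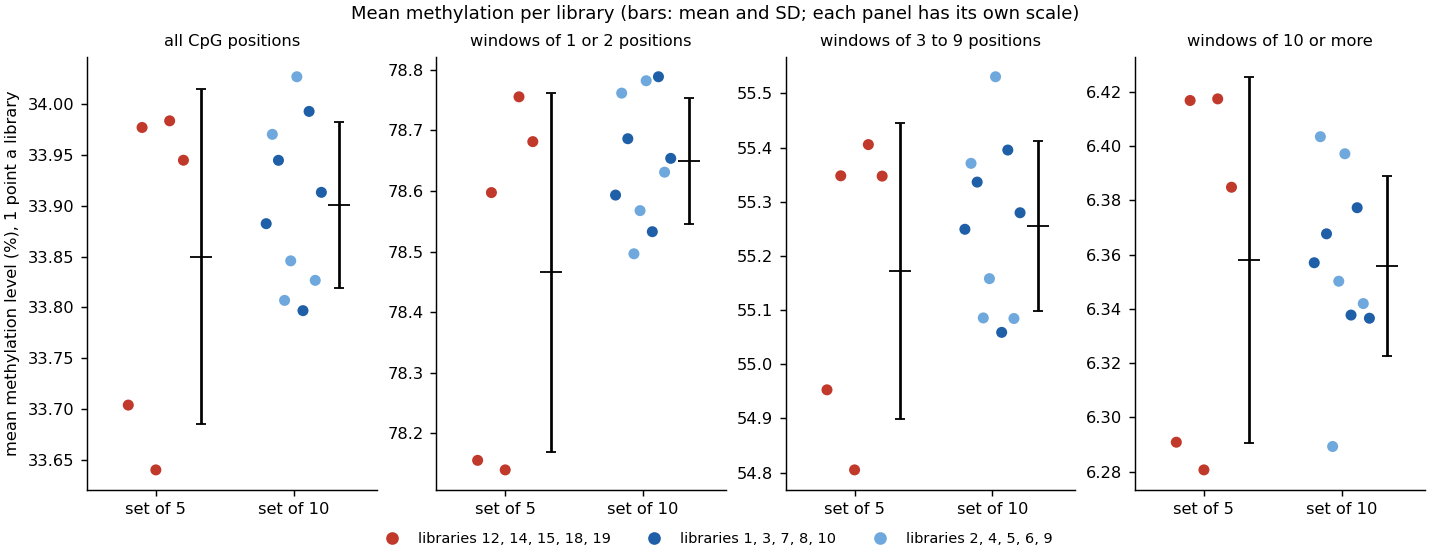
Mean methylation level in percent, 1 point a library, for all CpG positions and for windows by their number of compared positions, with the mean and SD of each set beside the points; each panel has its own scale. The 2 sets overlap in every panel, and libraries 12 and 15 of the set of 5 lie lowest in the panel of all CpG positions.

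Libraries of 1 set were about as far from each other as from those of the other set. Pearson's r of window levels between 2 libraries ran from 0.960 to 0.971 over the 105 pairs. The mean distance (1 minus r) was 0.0321 within the set of 5, 0.0355 within the set of 10 and 0.0338 between the sets. Set membership took up 6.98% of the variance of window levels, with a pseudo-F of 0.975 (exact permutation test over all assignments of the libraries, one-sided, p = 0.842).

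At single CpGs, 841 of 518554 positions were called as DMCs, which is 0.162% (logistic model, chi-square test without an overdispersion term, q under 0.01 and a difference above 25 percentage points). Of these 372 were higher and 469 lower in the set of 5. By the same rule 161 of 114788 windows were differentially methylated regions (DMRs), or 0.14%, with 59 higher and 102 lower. Differences at DMRs ran from -43.2 to 45.6 percentage points and had a median size of 28.4. Over all windows the median size of the difference was 1.44, and 86.2% of windows differed by 5 percentage points or less.

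**Figure D2:**
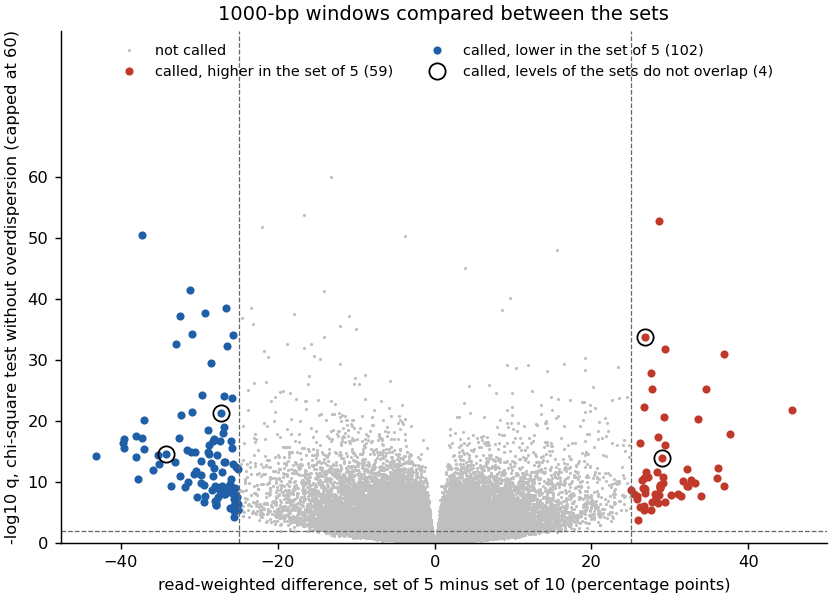
Read-weighted difference in percentage points (x axis) against -log10 of the q-value (y axis, capped at 60) for each of the 114788 windows; dashed lines mark the thresholds for a call. The 59 windows called higher in the set of 5 and the 102 called lower have a median size of 28.4 percentage points, and circles mark the 4 at which the levels of the sets do not overlap.

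The levels of the sets overlapped at most calls, 157 of the 161 DMRs among them. The chi-square test treats all reads of a set as 1 pool and does not use the spread between mice. Without overlap were 12 DMCs, against 71 of all CpGs (0.0137%), and 4 DMRs, against 41 of all windows (0.0357%). At a DMR the SD over libraries had a median of 20.8 percentage points in the set of 5 and 21.4 in the set of 10. Counting error alone, at the reads of each library, has a median SD of 7.57 there. The range over the 15 libraries was 50 percentage points or more at 158 DMRs, and 43 DMRs had a library at 0% and another at 100%. With the test scaled by the spread of the libraries (F test), no CpG and no window was called, while 615 CpGs and 116 windows differed by over 25 with an unadjusted p under 0.05. limma, run on the log2 ratio of both read counts, also called 0 of each, and 596 CpGs and 110 windows that differed by over 25 had an unadjusted limma p under 0.05.

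Comparisons of 5 against 5 at the same positions gave more calls than the comparison of 5 against 10, whichever the pair. The set of 5 against libraries 1, 3, 7, 8 and 10 gave 1942 DMCs (0.375%) and 394 DMRs (0.343%). Against libraries 2, 4, 5, 6 and 9 it gave 1746 DMCs (0.337%) and 348 DMRs (0.303%). The subsets of the set of 10, held against each other, gave 2059 DMCs (0.397%) and 427 DMRs (0.372%). These comparisons share libraries, and the levels at their calls mostly overlapped too. Free of overlap were 28, 39 and 48 DMRs in that order, against 480 (0.418%), 569 (0.496%) and 502 (0.437%) of all windows.

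The DMRs lay in windows of few compared positions, a number that depends on coverage as well as on CpG content. Of 161, 127 rested on 1 compared position and 15 on 3 or more, and none of the 12193 windows of 10 or more positions was called. A mean level of 20 to 80% was seen at 146 DMRs (90.7%) but at 12.6% of windows, so that 1.01% of the windows at such levels were called, against 0.0197% of those under 20% and 0.0123% of those over 80%. DMCs were at 20 to 80% in 91.1% of cases, against 6.77% of CpGs. The rule of a difference above 25 percentage points itself draws the mean level of a call into this range. Only 19.4% of DMCs had another DMC within 50 bp, and 665 of the 746 windows with a DMC held a single one.

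By position in the genome, 75 DMRs overlapped the span of 80 RefSeq genes and 86 lay outside gene spans. This was 0.0971% of the windows in genes and 0.229% of those outside. A protein-coding gene was overlapped by 50 DMRs. A promoter (250 bases before to 50 after the gene start) overlapped the 1000-bp window of 6 DMRs, 0.0465% of the windows that overlap one, and at 3 of the 6 no compared CpG lay within the promoter itself. Every autosome had between 2 DMRs (chromosome 16) and 14 (chromosomes 2 and 4). The shares of windows in genes, outside genes and at promoters were not matched for mean level, with which the share called varied. Exons and introns were not told apart here.

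At the 4 DMRs without overlap all 5 libraries of the set of 5 lay on one side of the other 10. Their exact permutation p of 0.000333 is the smallest that 5 libraries against 10 allow and could not pass an adjustment over 114788 windows. These and the other windows and positions named for a call were chosen on the same contrast, so each exact p only describes their spread.

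The window at chr8:17475001-17476000 overlaps Csmd1, a large membrane protein that restrains complement, and C030002A05Rik. Its levels were 76.1%, 36.8%, 75.0%, 68.4% and 66.1% in libraries 12, 14, 15, 18 and 19, and 83.3% to 100% with a median of 90.8% in the set of 10. All of the set of 5 thus lay lower, by 27.2 percentage points read-weighted (64.5% ± 16.0, SD, n = 5, against 93.1% ± 5.97, SD, n = 10). It has 2 compared positions 4 bp apart which did not move alike. Position 17475863 was at 48.2% ± 6.94 (SD, n = 5) against 86.3% ± 11.9 (SD, n = 10), while position 17475859 stood at 100% in all 10 libraries and at 80.7% ± 26.2 in the set of 5 and was not called.

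The other 3 are outside gene spans, with no gene within 2000 bp. At chr4:147401001-147402000, with 2 compared positions, the set of 5 read 39.8%, 42.9%, 37.3%, 28.6% and 37.0%, and the set of 10 ran from 0% to 19.4% (37.1% ± 5.32, SD, n = 5, against 11.4% ± 7.88, SD, n = 10). Both positions were called. At chr9:12454001-12455000 a single position stood at 83.3%, 80.5%, 100%, 97.6% and 97.4% in the set of 5 and between 45.5% and 79.4% in the set of 10. At chr17:80493001-80494000 the single position was lower in the set of 5, at 47.5%, 56.2%, 55.6%, 20.8% and 45.9%, against 57.9% to 91.7%. Library 14 of the set of 5, at 56.2%, and library 3 of the set of 10, at 57.9%, were nearest to each other.

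**Figure D3:**
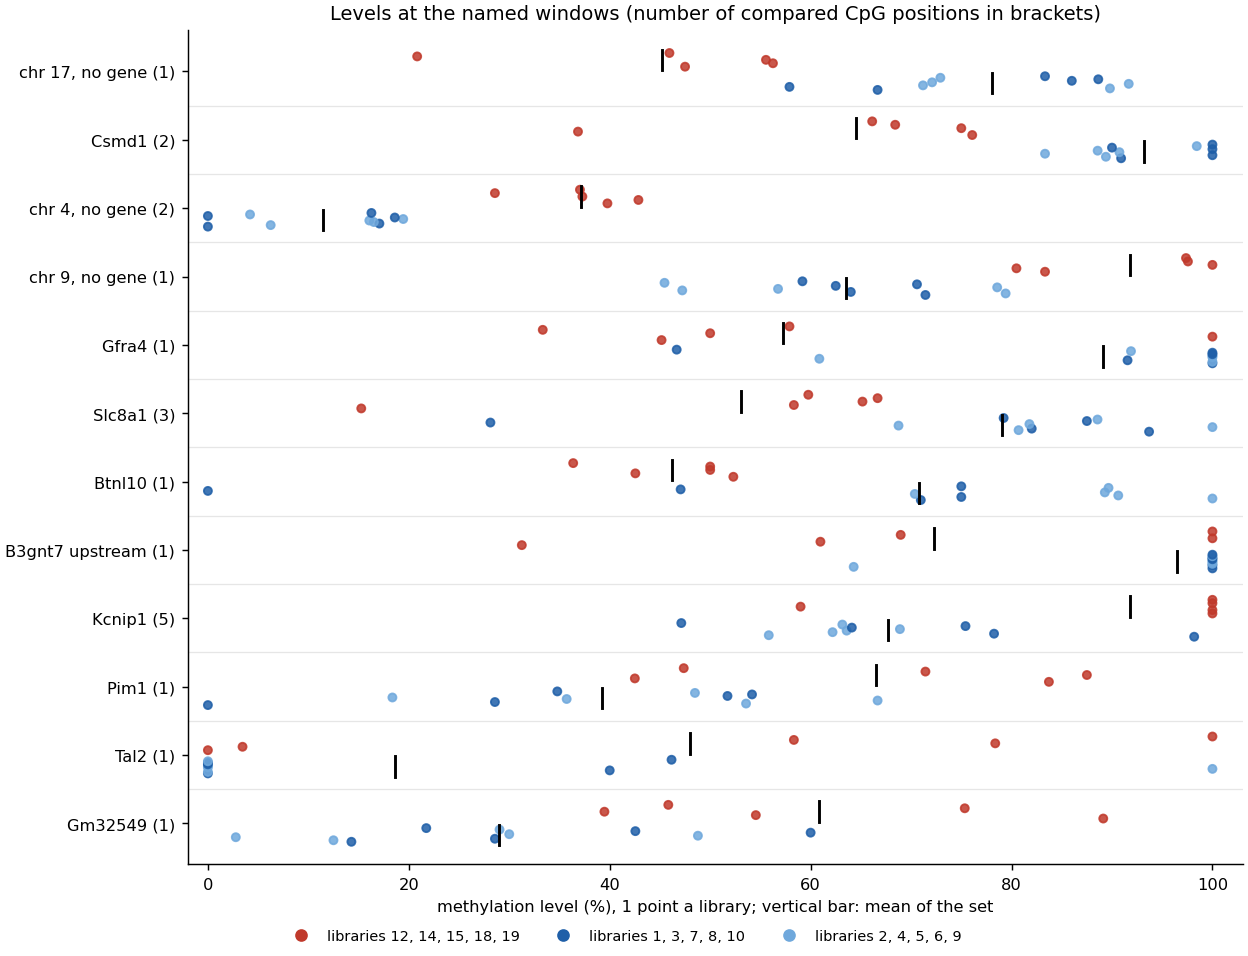
Methylation level in percent (x axis) of each library at the 12 named windows, with the gene overlapped or, where none is, the chromosome, and the number of compared positions in brackets; vertical bars are set means. In the upper 4 rows the red points of the set of 5 do not cross the blue points of the set of 10, and in the other 8 they do.

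Kcnip1, a calcium sensor that binds potassium channels, had the only DMR of 5 or more compared positions. In the window chr11:33756001-33757000, 5 positions spanning 28 bp read 100% in libraries 12, 14, 18 and 19 but 59.0% in library 15. The set of 10 ran from 47.1% to 98.2% with a median of 63.8%. The difference was 28.6 percentage points (91.8% ± 18.3, SD, n = 5, against 67.7% ± 13.9, SD, n = 10, exact permutation p = 0.0193, not adjusted), and 4 of the 5 positions were DMCs. Positions this near are read together by the same fragment and are not independent.

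Of the 6 DMRs whose window overlaps a promoter, 2 were higher and 4 lower in the set of 5. At Gm32549, Pim1 and Slc8a1 a compared CpG lay within the promoter, and at Gfra4, Btnl10 and between Gm16341 and B3gnt7 none did. In Gfra4, which encodes a receptor of the GDNF family of growth factors, 1 position at chr2:131042486 read 45.2%, 100%, 50.0%, 33.3% and 57.9% in the set of 5, and 46.7% to 100% in the set of 10 with a median of 100%. It was lower by 38.1 percentage points (57.3% ± 25.5, SD, n = 5, against 89.1% ± 19.2, SD, n = 10, exact permutation p = 0.0230), and the sets overlapped through library 14 at 100% and library 10 at 46.7%. At the promoter of Gm32549, a long non-coding RNA, the CpG shown above in capitals was higher by 37.7 percentage points, at 39.5% to 89.1% against 2.78% to 60% (exact permutation p = 0.00833).

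Slc8a1, the sodium-calcium exchanger of the cell membrane, was lower by 31.2 percentage points over 3 positions. Library 12 was at 15.3% and the other 4 of the set of 5 at 58.3% to 66.7%, and library 7 of the set of 10 was at 28.1% and the other 9 at 68.8% to 100% (exact permutation p = 0.0343). Pim1, a serine/threonine kinase, was higher by 31.1 (42.5% to 87.5% against 0% to 66.7%, exact permutation p = 0.0283). Btnl10, of the butyrophilin-like family, was lower by 28.4 (36.4% to 52.3% against 0% to 100%, exact permutation p = 0.0896). A position between Gm16341 and B3gnt7, a glycosyltransferase gene, was lower by 26.03 and stood at 100% in 9 of the 10 libraries of the set of 10 and in 2 of the set of 5 (exact permutation p = 0.0403). At each of these windows the levels of the sets overlapped.

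A further window was singled out after its values were seen, as the only DMR with a q under 0.05 in the F test, which 26 windows passed in all. At chr4:142017001-142018000, in 4930455G09Rik, 2 positions were at 0% in all 10 libraries of the set of 10 and at 40.0%, 37.3%, 41.5%, 15% and 0% in the set of 5. The level of library 19 equalled that of the set of 10.

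Among the 12 DMCs without overlap 7 were higher and 5 lower in the set of 5, and 3 lay in a gene. One is the Csmd1 position above. In Dlg2, a scaffold protein of synapses, position chr7:92280960 was at 98.2% to 100% in the set of 5 and at 46.4% to 97.4% in the set of 10. In Gpr83, a G protein-coupled receptor, position chr9:14861354 was at 41.7% to 74.3% against 0% to 40.5%. The largest difference of all DMCs, 51.1 percentage points, was at chr12:104615003 outside any gene, where the set of 5 read 45.5%, 75.4%, 45.8%, 59.4% and 100% and the set of 10 read 0% to 43.3%. Reads there numbered 11 to 67 a library.

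There were 7 genes with 3 or more DMCs in their span, and in 4 of them, Morn3, Dmrt1, Gm36510 and Xdh, all of these lay within 50 bp. Morn3 had 4 within 49 bp, all higher in the set of 5, by 25.6 to 29.5 percentage points. Xdh, which encodes an enzyme of purine breakdown, had 3 within 39 bp, all lower, by 25.98 to 40.3. Dmrt1, a transcription factor that maintains spermatogonia, had 3 within 43 bp, all lower, by 26.7 to 34.2. At its position 25603357 the set of 5 read 0%, 21.4%, 36.1%, 70.0% and 0%, and the set of 10 ran from 0% to 100%, so that the sets overlapped over most of their range (exact permutation p = 0.0586). All 3 positions had an exact permutation p over 0.05.

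The 9 promoter DMCs were 5 higher and 4 lower in the set of 5. Zscan29, a zinc-finger gene with a CpG-island promoter, had 28 compared positions in its stretch, and the 1 called position read 29.4%, 19.4%, 0%, 28.9% and 63.2% in the set of 5. In the set of 10 it was at 0% in 8 libraries, 9.09% in library 9 and 29.4% in library 3. Cabp1, a calcium-binding protein of neurons, was lower in the set of 5, at 0% in libraries 14, 15 and 19 and 23.0% to 26.3% in the others, against 4.76% to 58.4% (exact permutation p = 0.00300). Prom2, a prominin of membrane protrusions, was at 0% in library 12 and 41.5% to 64.1% in the other 4, against 0% to 30.4%. At each of the 9 positions the sets overlapped.

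**Figure D4:**
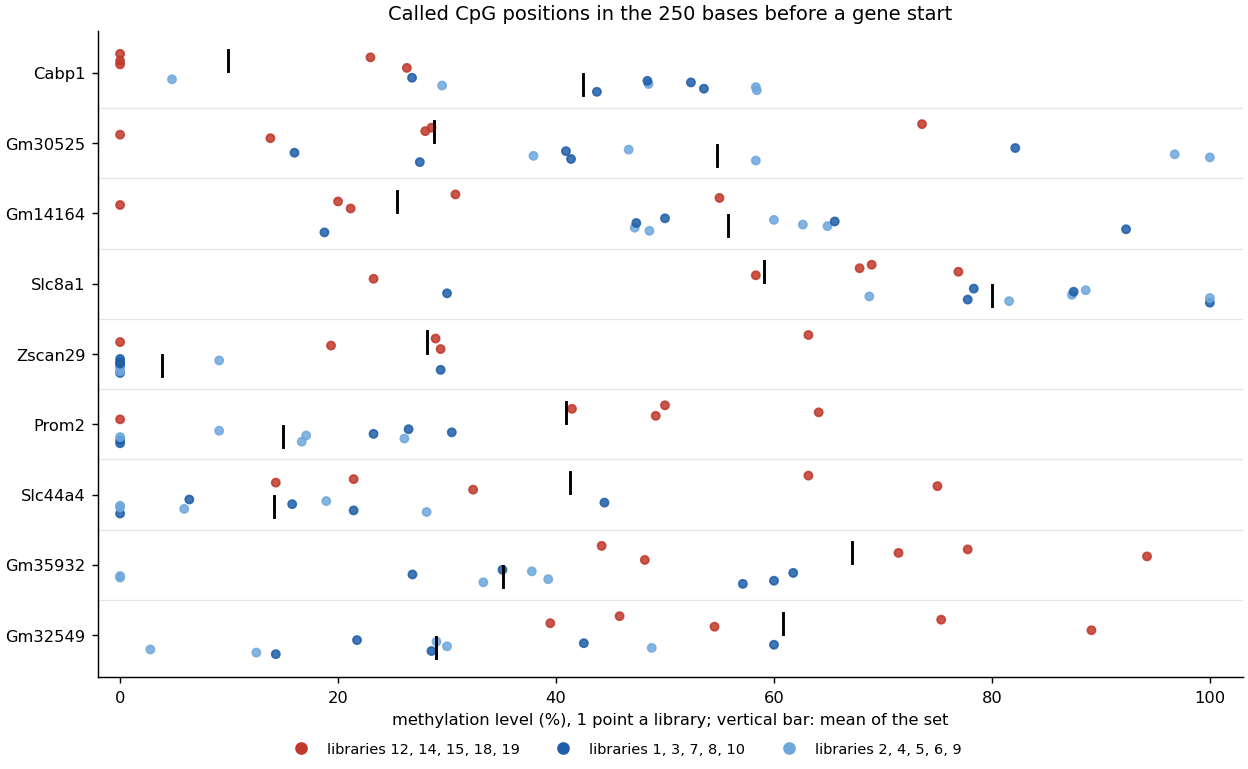
Methylation level in percent (x axis) of each library at the called CpG of 9 promoters, from the largest fall to the largest rise in the set of 5; vertical bars are set means. At each of the 9 positions at least 1 red point lies within the range of the blue points.

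Gene lists were read as counts, beside the background of 0.14% of windows and 0.162% of CpGs called. The 4 paternally methylated and 18 maternally methylated imprinted genes had 0 DMRs in 21 and 68 windows (0 DMCs in 129 and 499 CpGs). Genes of meiosis and the piRNA pathway had 0 in 86 windows, genes of spermiogenesis and sperm structure 0 in 91, pluripotency genes 0 in 83 and Hox genes 0 in 170, and none of these 4 lists held a DMC. At 0.14% even the longest list, of 191 windows, would hold fewer than 1 call, so a count of 0 in a list tells little by itself. The median difference of windows was -0.33 percentage points for spermiogenesis genes, 0.59 for the paternal loci and between -0.20 and 0.41 for the other 8 lists, and 0 over all windows.

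The germline genes silenced by methylation in somatic cells had 0 DMRs in 39 windows and 1 DMC in 214 CpGs, in Tex14. The position chr11:87468560 read 82.6%, 45.3%, 76.2%, 69.7% and 12.8% in the set of 5 and 0% to 54.5% in the set of 10 with a median of 1.61% (exact permutation p = 0.0140). Over the 6 positions of its window the set of 5 read 54.4%, 33.1%, 33.8%, 41.4% and 32.5%, and the set of 10 ran from 10.1% to 38.7% (39.0% ± 9.30, SD, n = 5, against 24.6% ± 9.11, SD, n = 10, exact permutation p = 0.0130). Ddx4, the germ cell RNA helicase, was at 5.17% ± 3.04 (SD, n = 5) against 1.69% ± 0.920 (SD, n = 10, exact permutation p = 0.00766) and Mest, an imprinted hydrolase gene, at 1.41% ± 1.37 (SD, n = 5) against 5.71% ± 3.36 (SD, n = 10, exact permutation p = 0.0176). Over the 34 distinct marker windows none of these passed Benjamini-Hochberg adjustment of the exact permutation p (adjusted p = 0.20 for each of the 3 genes), and at all 3 the levels of the sets overlapped.

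The genes that write, read and erase DNA methylation had 0 DMRs in 100 windows and 1 DMC in 649 CpGs. It lay in Tet2, a dioxygenase that oxidises methylcytosine, at chr3:133534166, with 100%, 26.7%, 67.3%, 62.9% and 27.3% in the set of 5 and 0% to 44.4% in the set of 10 (exact permutation p = 0.00566). Spermatogonial stem cell genes had 0 DMRs in 191 windows and 3 DMCs in 1323 CpGs (0.227%), all in Dmrt1. The study listed genes with DMRs shared between its generations, chosen on sperm of this series, and followed only some of them. Of the listed or followed genes 26 were entered here, while C130012C08Rik, BC035947 and Gm15966 were not entered under these names. The 26 genes had 1 DMR in 148 windows (0.676%) and 4 DMCs in 659 CpGs (0.607%). Of those with a call, Tal2 was followed by the study, and Dlg4 and Tmprss9 were not.

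Tal2, a basic helix-loop-helix transcription factor of that list, had the DMR, a single position at chr4:53786542 covered by 10 to 37 reads. It read 0%, 3.45%, 78.4%, 58.3% and 100% in libraries 12, 14, 15, 18 and 19. In the set of 10, 7 libraries were at 0%, and libraries 3, 10 and 4 were at 40.0%, 46.2% and 100%. The difference was 36.1 percentage points and passed the chi-square rule, and the exact permutation p over the mice was 0.172. The second window of Tal2, with 15 positions, was at 1.88% ± 1.43 (SD, n = 5) and 1.52% ± 1.05 (SD, n = 10). Dlg4, a synaptic scaffold, had 2 DMCs that were lower in the set of 5 (at chr11:70039177, 0% to 55.8% against 11.1% to 80%, exact permutation p = 0.00699). Tmprss9, a membrane protease, had 1 that was higher, at 0% to 100% against 0% to 36.0% (exact permutation p = 0.0326).

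Within the set of 10, both subsets differed from the set of 5 in the same direction at 160 of the 161 DMRs, a count that the choice of the DMRs on their pooled difference largely sets. A difference of over 25 percentage points from both subsets was seen at 70 DMRs. At 12 DMRs the subsets themselves were over 25 percentage points apart. Btnl10 is an example, at 11.5 percentage points below libraries 1, 3, 7, 8 and 10 and 41.8 below libraries 2, 4, 5, 6 and 9. These subsets are SSCT F1 and Control F1 by title, and SSCT F2/P and SSCT F2/M in the figure.

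**Figure D5:**
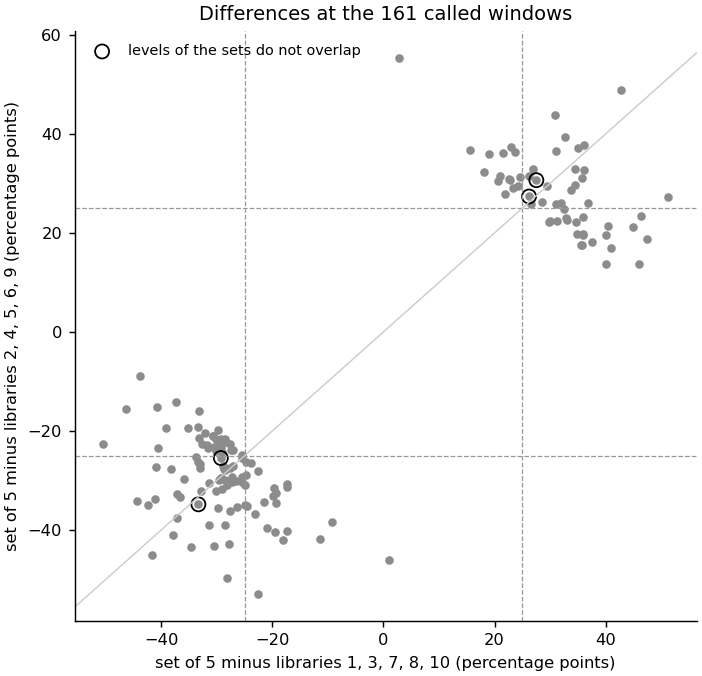
Difference of the set of 5 from libraries 1, 3, 7, 8 and 10 (x axis) and from libraries 2, 4, 5, 6 and 9 (y axis), in percentage points, for the 161 DMRs; dashed lines mark 25 percentage points and circles the 4 DMRs without overlap. Nearly every point has the same sign on both axes (160 of 161), with 70 beyond 25 percentage points on both axes.

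The 41 windows whose levels did not overlap, 0.0357% of the 114788 compared, mostly differed by little. They were 16 higher and 25 lower in the set of 5, and their median difference was 5.37 percentage points in size, with 29 of at most 10, 8 from 10 to 25 and the 4 DMRs above 25. At 18 of them the mean level was over 80% and at 14 under 20%. How many windows other assignments of the 15 libraries would separate was not tested. Examples, chosen after their values were seen, are Mei1, a gene of meiotic recombination, whose window of 4 positions stood at 4.42% ± 1.21 (SD, n = 5) against 0.272% ± 0.705 (SD, n = 10), and Syk, a tyrosine kinase gene, with 7 positions at 22.5% ± 6.09 (SD, n = 5) against 39.1% ± 10.39 (SD, n = 10). At Runx2, a transcription factor gene, 3 positions were at 100% in every library of the set of 5 and at a mean of 94.2% in the set of 10.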

How the data were processed

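RRBS libraries of sperm (50-bp single reads) were made from 1 mouse each. Per the submitters' processing notes the authors used FastQC, Trim Galore (version 0.4.1), Bismark (version 0.20.0) and methylKit (version 1.7.0) with GRCm38. The deposited tables give for each cytosine position the fraction of methylated reads and the count of reads covering it, with no normalization. Methylated reads were recovered as the product of both, rounded. Positions on the 19 autosomes with at least 10 reads in all 15 libraries and at most the 99.9th percentile of coverage were kept, and summed in windows of 1000 bp. Depth limits single values: at a DMR a library had a median of 37 reads, against 106 over all windows. PCR copies are not marked, so counting errors cover counting only.

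Each feature was tested in a logistic model by a chi-square test without overdispersion, with Benjamini-Hochberg adjustment over all features (Python 3.11.15, SciPy 1.17.1). Single values were tested by the exact permutation test over all assignments of the 15 libraries, two-sided. Alternatives were an F test that takes its dispersion from the Pearson statistic, limma (version 3.58.1, R 4.3.3) on log2 ratios with 1 read added to both counts, other coverage minima, a difference above 10 percentage points, merged strands, shifted windows, each subset of the set of 10 alone, and each library left out. Leaving out each library for the mean of sparse windows was chosen after seeing the data.

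The naming of libraries was checked against the coverage that the study lists for CpGs. The mean coverage of the set of 5 matched that listed for SSCT F1, within 0.05 reads, at 9 of 10 CpGs, and that of the libraries titled SSCT F1 at 0 of 10. Libraries 1 to 10 matched SSCT F2 at 9 of 11.

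Windows were named by rule: up to 8 DMRs without overlap, up to 8 DMRs of at least 5 positions, DMRs within 2000 bp of a listed gene, and up to 10 DMRs at promoters. The members and gene lists were chosen with earlier results of these data known. Genes and promoter sequences are from RefSeq (GRCm38.p6).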

Additional observations from a re-analysis of the deposited data

Results flagged for a closer look

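Single libraries stood far from the rest of their set at 7 of 48 sets of values examined, 2 sets at each of 24 measures. The rule marks about 1 in 20 by chance for normally distributed values, which levels gathered at 0 or 100% are not, and the windows were chosen for their differences, so its rate here is not known. All 7 were among the 12 named windows and none among the 12 measures per library.

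In the set of 5, library 14 was at 36.8% in the Csmd1 window with the next library at 66.1%. Library 15 was at 59.0% in the Kcnip1 window with the other 4 at 100%. Library 12 was at 15.3% in the Slc8a1 window with the next at 58.3%.

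In the set of 10, library 7 was at 28.1% in the same Slc8a1 window with the next at 68.8%, and at 0% in the Btnl10 window with the next at 47.1%. Library 2 was at 64.3% in the window between Gm16341 and B3gnt7, where the other 9 were at 100%. Library 4 was at 100% in the Tal2 window with the next at 46.2%.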

How the results depend on the processing

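The counts of calls moved with the threshold and the test, from 841 DMCs and 161 DMRs. A minimum of 5 reads gave 2347 and 352, a minimum of 20 reads 123 and 39, and a difference above 10 percentage points 19165 and 4041. The F test and limma gave 0 of each, with the unadjusted counts given above. Against libraries 1, 3, 7, 8 and 10 alone there were 1942 and 394, against libraries 2, 4, 5, 6 and 9 alone 1746 and 348, and in windows of at least 3 positions 15 DMRs. Leaving out 1 library gave 910 to 1333 DMCs and 170 to 253 DMRs. The counts moved by over 1.5 times without library 15 (1310 and 245) and library 18 (1333 and 253), and for DMRs without library 19 (252). Called in every such fit were 228 DMCs and 48 DMRs. The difference in mean methylation ran from -0.0844 to 0.00168 percentage points with 1 library left out, and changed sign without library 15 (0.00168, exact permutation p = 0.977). Of the 12 named windows 10 had an exact permutation p under 0.05, 7 to 11 with 1 library left out, 5 against libraries 1, 3, 7, 8 and 10 alone, and 1 of the 1 left at a minimum of 20 reads. These windows were chosen by their difference in the same libraries, so this count says nothing of stability. The windows of Csmd1 (-22.6 without library 14), Pim1 (24.4 without library 12), Slc8a1 (-20.9 without library 12) and B3gnt7 (-15.8 without library 12) fell under 25 percentage points. The cause was not tested.

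The libraries share only replicate numbers in their titles. Deviations of same-numbered libraries correlated at -0.0085 to 0.0231 over 15 pairs, none over 0.1. With the replicate number as a block there were 838 DMCs and 161 DMRs.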
